A study of Mus musculus with 14 samples.

Results

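The Bcl2 family genes were examined in RNA-seq of single mouse oocytes. The members were 10 genes chosen by name, of 24064 in the count table. Bcl2, Bcl2l1 and Mcl1 encode proteins of the pro-survival kind, and Bax, Bak1 and Bok encode the pore-forming proteins. Bid, Bcl2l11 and Bbc3 encode BH3-only proteins. Bcl2l10 was listed with the pro-survival kind, and its effect on survival was not tested here. The study asked how loss of the maternal histone demethylase KDM1A (LSD1) changes the messages stored in the oocyte, and the comparison was between 5 control and 5 mutant oocytes. The controls were 4 wt/wt oocytes from C57BL/6J females (wt1, wt3, wt4 and wt5) and 1 f/f oocyte (C3) from a mixed B6;129 female with floxed Kdm1a and no cre. The mutants were 5 mko/mko oocytes (D1, D2, D3, D4 and D7) from mixed B6;129 Kdm1a f/f females carrying Zp3-cre, a transgene driven by a zona pellucida gene promoter that acts in growing oocytes. The labels name no treatment. The study's methods describe young, hormone-superovulated f/f and f/f::Zp3-cre females for collecting embryos, and do not state the age or the number of the females that gave these oocytes, so p-values measure the spread between these oocytes.

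Bcl2 family proteins meet at the outer mitochondrial membrane. Pro-survival members hold the pore-forming members and the BH3-only members in check through a groove that binds the BH3 helix. When BH3-only proteins outnumber free grooves, Bax and Bak1 open the membrane, cytochrome c leaves and caspases are activated. This balance is known in the ovary for setting how many germ cells are lost during development and after DNA damage, and Bcl2l10, also called Diva or Boo, is known as the member with expression largely in the ovary and oocyte.

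The coding sequences are printed to show 2 short elements that members of the family share. The BH3 core was read as a leucine codon, 3 codons of any kind, a glycine codon and an aspartate codon, in the coding frame of GENCODE transcripts on GRCm38, which is mm10. It occurred once in 8 of the 10 members and in 13.3% of 19560 coding genes. In the following 27-base stretches, written 5′ to 3′ on the coding strand, capitals mark the leucine, glycine and aspartate codons.
Bcl2l11, chr2:128147147-128147173, plus strand: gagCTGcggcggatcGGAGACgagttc
Bid, chr6:120897292-120897318, minus strand: catCTCgcccaaataGGCGATgagatg
Mcl1, chr3:95659433-95659459, plus strand: accCTGcggcgcgtgGGCGACggcgtg
Bcl2l1, chr2:152829700-152829726, minus strand: gcgCTGagagaggcaGGCGATgagttt
Bax, chr7:45466000-45466026, minus strand: tgtCTCcggcgaattGGAGATgaactg
No match to these letters was found in the coding sequence of Bcl2l10 or of Bbc3. The other element, a core of the BH2 region, was read as a glycine or arginine codon followed by GGNTGG, for glycine and tryptophan. It occurred once in 7 of the 10 members, namely Bcl2l10, Bcl2, Bcl2l1, Mcl1 and the 3 pore-forming ones, and in 5.5% of the same coding genes. In the 18-base stretches below, capitals mark the glycine and tryptophan codons.
Bcl2l10, chr9:75348344-75351016, plus strand: ctcggcGGCTGGgatggc
Mcl1, chr3:95659997-95660712, plus strand: caaagaGGCTGGgatggg
Bcl2l1, chr2:152782277-152829438, minus strand: aacggcGGCTGGgacact
Bcl2, chr1:106543393-106712316, minus strand: aacggaGGCTGGgatgcc
In all 7 members an exon junction fell 12 bases into the stretch, directly after the tryptophan codon, so each pair of coordinates spans an intron. Bcl2l10 shares this element and its exon junction with Mcl1, Bcl2l1 and Bcl2, and the BH3-only genes Bid, Bcl2l11 and Bbc3 have no match to it.

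Total counts per oocyte ranged from 1375187 to 6928548. Kdm1a was lower in each mutant oocyte (0, 2, 4, 3 and 10 counts) than in wt/wt oocytes (27 to 85) and the f/f oocyte (669). All 18 oocyte markers had counts, and their summed level was 28490 to 49570 CPM (counts per 1000000, over library sizes adjusted by TMM factors) in the wt/wt oocytes, 89770 in C3 and 81770 to 158400 in the mutants. Of 15 cumulus and granulosa cell markers 9 were at 0 in every oocyte, Foxl2, Amh, Fshr and Inha among them, and the summed level of the list, mostly Cyp19a1, was 18.8 to 67.4 CPM in the wt/wt group, 64.5 in C3 and 83.9 to 149 in the mutants. Of 6 blood and stroma markers 4 were at 0, and the list summed to 10.6 to 35.8 CPM over all oocytes. Genes within a list differed. Summed counts of Cyp19a1 were 270 in wt/wt and 1648 in mutant oocytes, while Nr5a2 had 85 and 32 and Has2 had 23 and 1. Oosp1 (68832 and 84495), Mos (3208 and 6101) and Kit (1629 and 2075) were smaller shares in mutants, of 6644494 and 16670670 counts in all. In both the oocyte list and the cumulus list the summed level of each mutant oocyte lay above every wt/wt oocyte in CPM. In shares of all counts (counts per 1000000, with no TMM adjustment) this held for the oocyte list, while the cumulus list overlapped, at 25.7 to 88.7 in wt/wt and 68.4 to 129 in mutant oocytes. Their part in the results for the Bcl2 family was not tested. Strain and genotype cannot be told apart between wt/wt and mutant oocytes, since only the f/f oocyte shares the mixed background of the mutants. The TMM factors followed the same line, with 1.296 to 1.365 for the wt/wt group, 0.6516 for C3 and 0.7794 to 0.9516 for the mutants.

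Across the family, the mutant oocytes had less Bcl2l11, a BH3-only gene, and no member was called higher. Bid, also BH3-only, was called lower, but only its counts in control oocytes carried it into the test, so its call gives no support. Calls were made with edgeR's quasi-likelihood test over the 9198 genes kept, and needed both an adjusted p under 0.05 and a log2 fold change of 1 or more in size. By this rule 25.9% of the genes tested were called. Of the 10 members, 9 had a count and 5 were tested. The 0 members called higher, where 14.7% of genes tested were, stayed 0 at an unadjusted p under 0.05 and with DESeq2, whereas limma voom called 1 higher, Bcl2l10. The 2 members called lower were Bcl2l11 and Bid, where 11.2% of genes tested were called lower, and Bid adds no support to this count. In Bcl2l11 no mutant oocyte reached the lowest control, a separation in either direction found in 16.2% of genes tested. The separation of Bid rests on 1 count in wt5 (0.448 CPM) against 1 in D3 (0.356 CPM) and adds nothing to this. Taking all genes tested, the log2 fold changes had a median of 0.165, and scaling by library totals alone moved it to -0.225 and the share of calls that were higher from 56.7% to 36.7%. The plot of the members by oocyte shows how far Bcl2l10 lies from the rest.

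**Figure D1:**
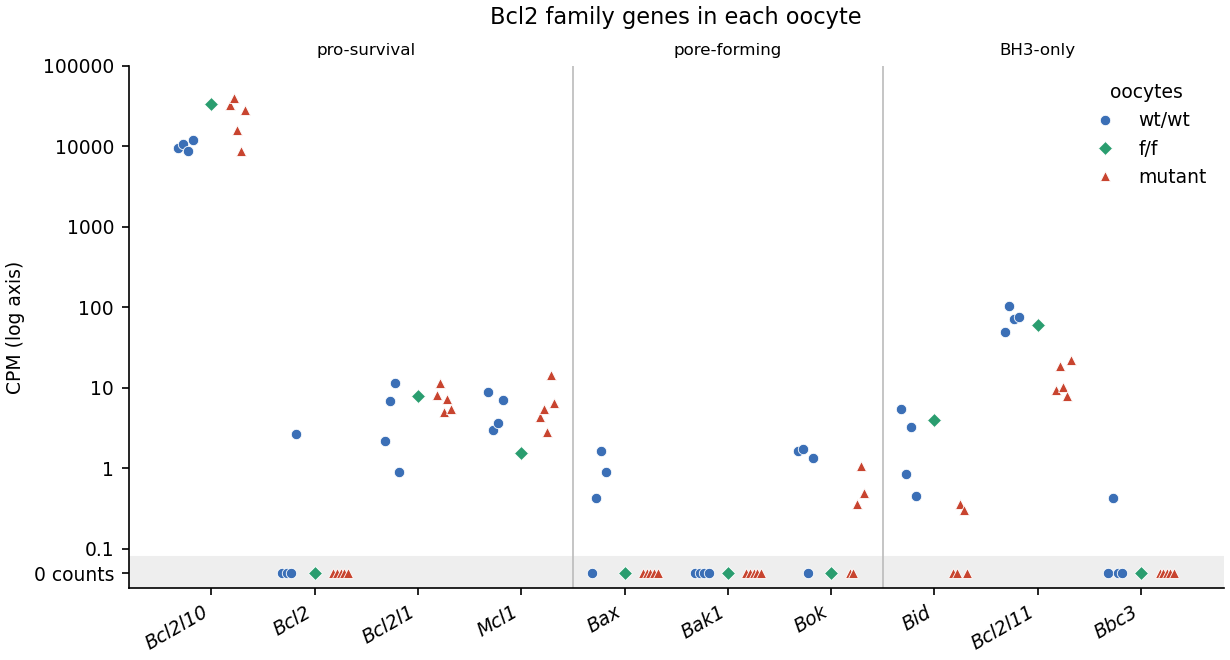
Each point is the level of a Bcl2 family gene in 1 oocyte, in CPM on a log axis, for 4 wt/wt, 1 f/f and 5 mutant oocytes; points on the grey band had 0 counts. Bcl2l10 lies at 8684 CPM or above in every oocyte, no other member exceeds the 104 CPM that Bcl2l11 has in wt3, and Bak1 has no count.

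Bcl2l10 was the most abundant member by far, and it was among the most abundant messages of the whole oocyte. Its gene lies on chromosome 9 (GRCm38, 75347758 to 75351632, plus strand), with no annotated gene overlapping it, and its exons span 1220 bases. Per kilobase of exon, its mean level in wt/wt oocytes, 8418 CPM, had rank 1 of 14700 genes, and rank 2 without wt5. It had rank 2 in the f/f oocyte and rank 4 by the mean of the mutant oocytes. Single oocytes placed it at ranks 1 to 6, with the lowest place in D4.

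The counts of Bcl2l10 were 17479 in wt1, 24762 in wt3, 21726 in wt4 and 26606 in wt5. They were 152539 in the f/f oocyte C3, and 58998, 66660, 45598, 57234 and 56295 in the mutants D1, D2, D3, D4 and D7. On the CPM scale the wt/wt oocytes were close together, at 9652, 10660, 8863 and 11910, and the f/f oocyte reached 33790. The mutants spread from 8684 in D4 and 16210 in D3 to 28000 in D7, 32260 in D1 and 40510 in D2. On this scale 4 of 5 mutant oocytes lay above every wt/wt oocyte, D4 lay below them, and 4 of 5 lay below the f/f oocyte. As a share of all counts, Bcl2l10 took 1.15% (95% Wilson interval 1.13% to 1.16%) in wt4, the lowest wt/wt oocyte, and 1.63% (1.61% to 1.65%) in wt5, the highest. It took 2.20% (2.19% to 2.21%) in C3, and between 0.826% (0.820% to 0.833%) in D4 and 3.31% (3.28% to 3.33%) in D2 among mutants. By these shares 3 of 5 mutant oocytes lay above every wt/wt oocyte, D3 lay within their range and D4 below it, and the place against C3 turned, with 3 of 5 above it. The intervals cover counting error only, and the oocytes differ by far more than that.

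The mean level of Bcl2l10 was 25130 ± 12710 CPM (SD, n = 5) in mutant and 14970 ± 10580 CPM (SD, n = 5) in control oocytes. The log2 fold change of 0.75 (SE 0.51) did not pass the test (edgeR adjusted p = 0.288), so no difference between mutant and control oocytes was detected beyond their spread. The result depended on the f/f oocyte and on the method. With all 10 oocytes, limma voom with sample quality weights gave 1.25 (SE 0.33, adjusted p = 0.00618) and called Bcl2l10 higher, whereas removing trends with GC content and length gave 0.13 (SE 0.54, adjusted p = 0.875). With edgeR against the wt/wt oocytes alone, at 10270 ± 1316 CPM (SD, n = 4), the log2 fold change was 1.32 (SE 0.40, adjusted p = 0.0205) and Bcl2l10 was called higher, in a comparison that called 31.5% of genes in either direction. Against the f/f oocyte alone it was -0.40 (SE 0.67, adjusted p = 0.774), with the lone f/f oocyte assumed to vary like the mutants, and that fit called only 3 of 8811 genes. The f/f oocyte itself had 3.29 times the wt/wt mean of Bcl2l10 in CPM and 1.61 times in shares of all counts, with no replicate of its kind.

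**Figure D2:**
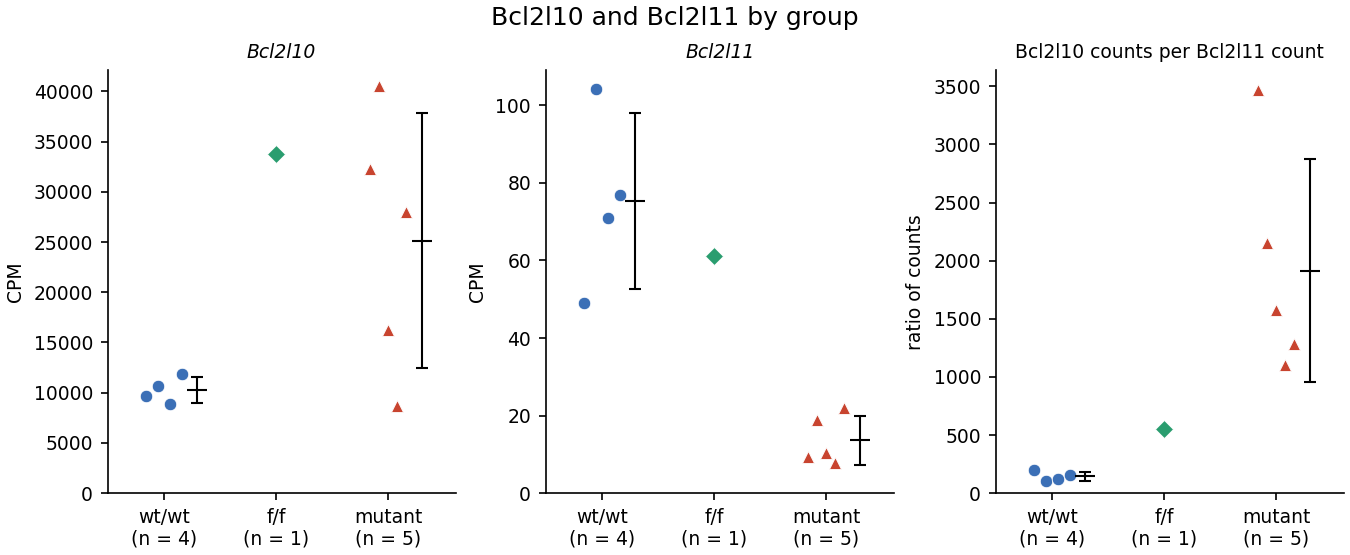
Levels of Bcl2l10 and of Bcl2l11 in CPM and the number of Bcl2l10 counts per Bcl2l11 count, by group, with 1 point per oocyte and the mean ± SD beside groups of more than 1. The f/f oocyte has Bcl2l10 at 33790 CPM, within the range of the mutants, and Bcl2l11 at 61.1 CPM, within the range of wt/wt oocytes.

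The pro-survival members Bcl2l1, Mcl1 and Bcl2 were read at low levels. Bcl2l1, which encodes Bcl-xL (chromosome 2, 152780668 to 152831728, minus strand), had 4, 16, 28 and 2 counts in wt1, wt3, wt4 and wt5, 36 in C3, and 15, 19, 14, 48 and 11 in D1, D2, D3, D4 and D7. In CPM the wt/wt oocytes ranged from 0.895 to 11.4 and the mutants from 4.98 to 11.6, with C3 at 7.97, so the groups overlap. Its log2 fold change was 0.32 (SE 0.62, adjusted p = 0.73), and it turned to -0.06 with library totals alone.

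Mcl1, a short-lived guard that is removed when translation stops (chromosome 3, 95658788 to 95663176, plus strand), had 16, 7, 9 and 16 counts in wt/wt oocytes wt1, wt3, wt4 and wt5, 7 in C3, and 8, 9, 8, 95 and 13 in D1, D2, D3, D4 and D7. D4 was the highest oocyte also in CPM, at 14.4 against 1.55 to 8.84 in the controls. The log2 fold change was 0.52 (SE 0.62, adjusted p = 0.567), and the difference was within the spread between oocytes. It was 0.0085 without D4 and 2.13 (adjusted p = 0.333) against the f/f oocyte alone, and was not called in either.

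Bcl2, the founding member (chromosome 1, 106538178 to 106714274, minus strand), had 6 counts in wt5 and 0 in the other oocytes, so it was not tested. The 0 counts among the 16670670 of the mutant oocytes allow a level of up to 0.18 RPM (counts per 1000000 of all counts, with no TMM adjustment). An annotated antisense gene, D630008O14Rik, overlaps Bcl2, and whether the counting used strand is not given in the sources used here. The message named for the family was thus close to the floor where its relative Bcl2l10 was near the top.

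The pore-forming members were at or near the floor in every group, and none of the 3 was tested. Bax (chromosome 7, 45461697 to 45466898, minus strand) had 0, 1, 4 and 2 counts in wt1, wt3, wt4 and wt5, and 0 in C3 and in every mutant oocyte. In sums this was 7 of 6644494 counts in wt/wt oocytes, or 1.05 RPM, and 0 in the mutants, which allows up to 0.18 RPM. Bax shares its locus with Gm45808, a protein-coding annotation on the same strand. Bak1 (chromosome 17, 27019810 to 27029009, minus strand) had 0 counts in all 10 oocytes, which over their 30243712 counts allows up to 0.0992 RPM of reads counted for it. Ggnbp1, a protein-coding gene on the other strand, overlaps Bak1, and reads dropped for that overlap are not covered by this limit. Bok (chromosome 1, 93685660 to 93695764, plus strand), a relative that does not need BH3-only proteins to act, had 3, 4, 0 and 3 counts in wt/wt oocytes, 0 in C3, and 0, 0, 1, 7 and 1 in mutants. Its sums were 1.51 RPM in wt/wt and 0.54 RPM in mutant oocytes. In a single oocyte 3 counts stand for 0.455 to 1.82 CPM, so lower levels of these messages were not detectable at this depth.

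Among the BH3-only members, Bcl2l11 showed the clearest difference. Bcl2l11 encodes Bim, which binds the main pro-survival members of the family and can act on Bax directly. The gene lies on chromosome 2 (128126038 to 128162547, plus strand), with no annotated gene overlapping it. It had 89, 242, 174 and 172 counts in wt1, wt3, wt4 and wt5 and 276 in C3, against 17, 31, 29, 52 and 44 in D1, D2, D3, D4 and D7. In CPM the wt/wt oocytes were at 49.1, 104, 71.0 and 77.0 and the f/f oocyte at 61.1. The mutants were at 9.30, 18.8, 10.3, 7.89 and 21.9, each below every control oocyte, wt/wt and f/f alike.

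Mean Bcl2l11 was 13.6 ± 6.29 CPM (SD, n = 5) in mutant and 72.5 ± 20.6 CPM (SD, n = 5) in control oocytes. The log2 fold change was -2.42 (SE 0.40), with an edgeR adjusted p of 0.000953. The 24 alternatives reuse the same oocytes, and leaving out C3 is the same fit as wt/wt oocytes alone. Their tally is therefore no independent support. The call held in 23 of 24, with log2 fold changes from -2.89 to -2.15. The exception was the f/f oocyte alone as control, where the log2 fold change was -2.15 (SE 0.66) and the adjusted p 0.151. That comparison stays within the mixed background but has a single control oocyte. Scaling by library totals alone gave -2.89, on which scale the f/f oocyte, at 39.8 RPM, lay below the wt/wt oocytes (64.7 to 139) and above the mutants (7.25 to 20.6).

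Bid encodes a protein that caspases cut to carry a death signal to the mitochondrion. It had 10, 2, 8 and 1 counts in wt1, wt3, wt4 and wt5 and 18 in C3, against 0, 0, 1, 2 and 0 in D1, D2, D3, D4 and D7. The mutant and control oocytes did not overlap in CPM, but the margin was small: wt5 and D3 each had 1 count, at 0.448 and 0.356 CPM. The fitted log2 fold change of -3.70 (SE 1.04, edgeR adjusted p = 0.0171) passed the test. Its size depends on how the fit treats counts near 0, with 2 counts or fewer in each mutant. Only the control counts carried Bid into the test, so this p-value is no support for a change. Summed over oocytes, Bid had 3 counts in mutants and 39 in controls. That is a ratio of shares of all counts of 0.0626, with an exact 95% counting interval of 0.0124 to 0.197. The interval covers counting error only and leaves out the spread between oocytes.

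The Bid call was lost with the replicate block over single libraries (log2 fold change -2.54, SE 1.61, adjusted p = 0.323). Bid passes the filter on low counts only through the control oocytes, so the other alternatives that test it are no sign of stability. It did not pass that filter without wt1, without C3, against either control genotype alone, with edgeR's filterByExpr and with 1 library per oocyte. Of the 18 counts in C3, 16 came from the C3 library whose name carries the suffix DNA and 2 from the other. The locus (chromosome 6, 120891930 to 120916853, minus strand) overlaps Bcl2l13 on the other strand, so reads of the pair could be split or dropped in counting. Bcl2l13, a mitophagy receptor of the same family, was at 95.4 ± 20.4 CPM (SD, n = 5) in control and 56.3 ± 11.7 CPM (SD, n = 5) in mutant oocytes. This change, -0.76 on the log2 scale, was not called (adjusted p = 0.0859).

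Bbc3, which encodes Puma, a trigger of oocyte death after DNA damage, had 1 count in wt3 and 0 in the other 9 oocytes. It lies on chromosome 7 (16308393 to 16318205, plus strand) and was not tested.

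The make-up of the family counts differed between the groups. Bcl2l10 took 98.9% to 99.9% of all family counts in every oocyte. The counts of Bcl2l10 per Bcl2l11 count were 196, 102, 125 and 155 in wt/wt oocytes wt1, wt3, wt4 and wt5. The ratio was 553 in C3, and 3470, 2150, 1572, 1101 and 1279 in D1, D2, D3, D4 and D7. The ratio does not depend on library scaling. With libraries summed, wt/wt and mutant oocytes did not overlap, and the single f/f oocyte lay between them. This repeats the separation of Bcl2l11, of a kind found in 16.2% of genes tested. How often ratios of other genes separate was not examined. The ratio compares messages, and protein was not measured. Single libraries did overlap between f/f and mutant: the C3 libraries had 392 and 854, while the lowest mutant libraries, those of D3 and D7 with the suffix DNA, had 676 and 719. All libraries of f/f and mutant oocytes lay above the wt/wt libraries, at 102 to 196. Among the remaining members without Bcl2l10, Bcl2l11 took 73.0% to 88.6% of counts in the wt/wt group, 81.9% in C3 and 25.5% to 63.8% in mutants. Summed, these remaining members reached 88.7 to 157 RPM in the wt/wt group, 48.6 in C3 and 16.3 to 32.3 in mutants.

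**Figure D3:**
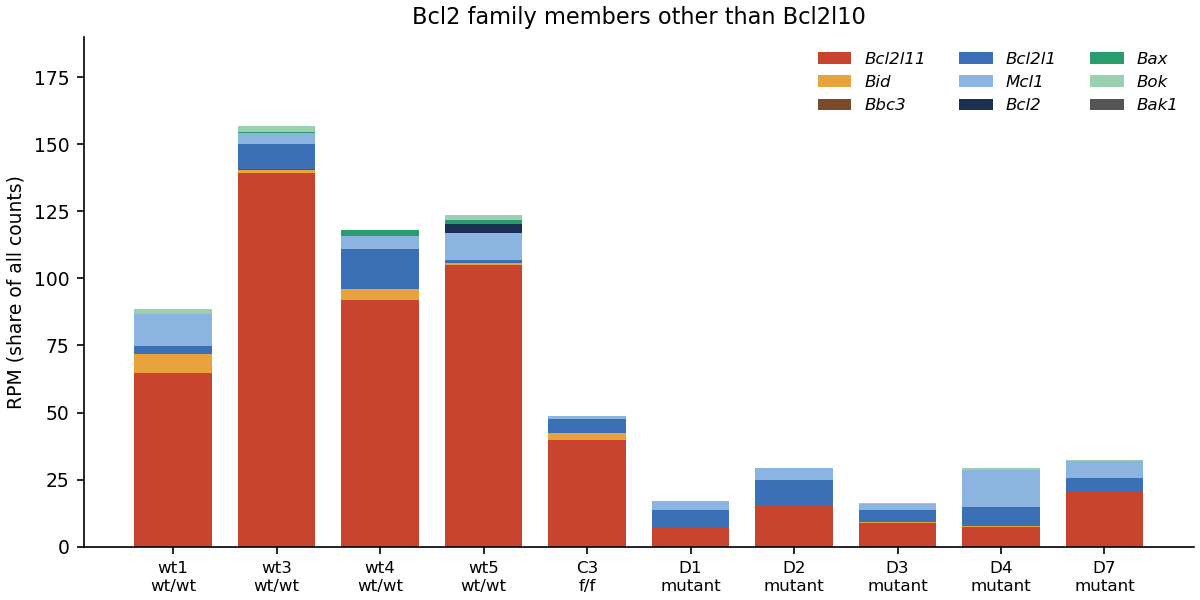
Stacked bars give the counts of the 9 members other than Bcl2l10 in RPM, their share of all counts, for each of the 10 oocytes. Bcl2l11, in red, takes 64.7 to 139 RPM in the wt/wt group, 39.8 in C3 and 7.25 to 20.6 in mutants. Bcl2l1 and Mcl1 have a count in every oocyte, but as little as 1.22 RPM (Bcl2l1 in wt5) and 1.01 RPM (Mcl1 in C3).

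Per kilobase of exon, the order of mean levels in wt/wt oocytes was Bcl2l10 (8418 CPM), Bcl2l11 (9.38), Mcl1 (1.66), Bcl2l1 (1.17), Bid (0.711), Bok (0.642), Bax (0.469), Bcl2 (0.0733), Bbc3 (0.0507) and Bak1 (0). Bcl2l10 and Bcl2l11 stood clear of the next member in every wt/wt oocyte, and from Mcl1 on the ranges of neighbours overlapped. In mutant oocytes Bcl2l10 (20600) was followed by Mcl1 (1.96), Bcl2l11 (1.70) and Bcl2l1 (1.64), whose ranges overlapped, then by Bok (0.208) and Bid (0.0371). In the f/f oocyte the order was Bcl2l10 (27690), Bcl2l11 (7.61), Bcl2l1 (1.74), Bid (1.12) and Mcl1 (0.454), with no spread to set beside it. Because the cDNA was primed at the poly(A) tail, exon length overstates what could be read of the longer messages, such as Bcl2l11 with 8029 bases of exon. With the length capped at 3 kb, the order in mutant oocytes turned to Bcl2l11 (4.55), Bcl2l1 (2.50) and Mcl1 (2.24) after Bcl2l10, and in wt/wt oocytes Bcl2l11 stood at 25.1 with Mcl1 (1.89) and Bcl2l1 (1.78) next.

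The names C3, D3, D4 and D7 each cover 2 libraries, which were summed. As a share of all counts, the libraries of a pair differed 1.15 to 1.24 times for Bcl2l10, with 11500 counts or more in each library. For Bcl2l11 they differed 1.61 to 3.53 times. In D3 the library with the suffix DNA had 17 Bcl2l11 counts (18.3 RPM) and the other 12 (5.18 RPM), and in D7 the values were 32 (32.4 RPM) and 12 (10.4 RPM). D4 went the other way, with 18 counts (5.65 RPM) in the library with the suffix and 34 (9.09 RPM) in the other. The libraries of C3 had 51.2 RPM with the suffix and 28.1 without it, so the lower C3 library lay below the higher D7 library.

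The other genes of the pathway were read from 4 lists, described by their counts because no set test was made. Of 62 genes listed, 57 had a count, 47 were tested and 8 were called, 4 higher and 4 lower. That is 17.0% of those tested, against 25.9% of all genes tested, and their median log2 fold change was 0.0296 against 0.165. The plot of fold changes shows these genes beside the members.

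**Figure D4:**
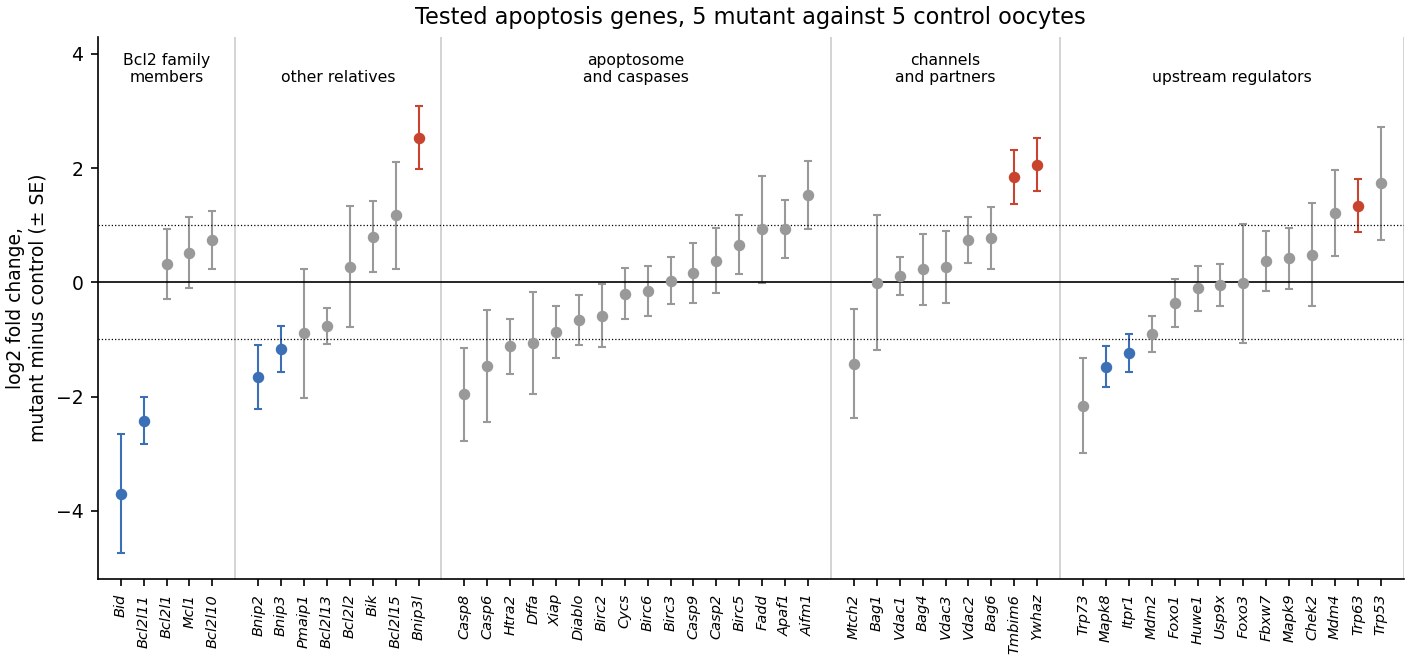
Log2 fold change of mutant minus control oocytes with its SE for the 5 tested Bcl2 family members and the 47 tested genes of 4 pathway lists, sorted within each list; red and blue points were called higher and lower, and dotted lines mark 1 and -1. Bid and Bcl2l11 lie lowest, at -3.70 and -2.42, and Bnip3l, Ywhaz and Tmbim6 lie highest among called genes.

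Among other relatives of the family, 8 of 17 were tested, 1 was called higher and 2 lower. Bnip3l, a receptor for removal of mitochondria, was at 15.9 ± 6.11 CPM (SD, n = 4) in the wt/wt group, 27.7 in C3 and 105 ± 92.4 (SD, n = 5) in mutants. The lowest mutant of Bnip3l had 30.4 CPM and D4 the highest, 260 CPM, so every mutant lay above every control (log2 fold change 2.53, SE 0.55, adjusted p = 0.00457). Without D4 the log2 fold change of Bnip3l was 1.88 (adjusted p = 0.0126). Its close relative Bnip3 was called lower, at 122 ± 36.3 CPM (SD, n = 5) in control and 54.1 ± 28.9 (SD, n = 5) in mutant oocytes (log2 fold change -1.17, adjusted p = 0.0432). Bnip2 was also called lower, at 11.0 ± 5.03 CPM (SD, n = 5) against 3.36 ± 1.77 (SD, n = 5; log2 fold change -1.66, adjusted p = 0.0393). The calls of Bnip3 and Bnip2 each held in 14 of 24 alternatives and that of Bnip3l in 23. Against the f/f oocyte alone the log2 fold changes were -0.32 (adjusted p = 0.843) for Bnip3, -1.91 (adjusted p = 0.253) for Bnip2 and 1.94 (adjusted p = 0.349) for Bnip3l. The call of Bnip3 was lost without wt1, wt3, wt4, wt5, D1, D2 or D4 (log2 fold changes over single oocytes left out -1.44 to -0.97, adjusted p up to 0.0939). That of Bnip2 was lost without wt1, wt4, C3, D1, D2 or D7 (-1.88 to -1.43, adjusted p up to 0.101).

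In the list of the apoptosome, caspases and their inhibitors, 16 of 20 genes were tested and edgeR called 0. At an unadjusted p under 0.05 there were 3, namely Casp8, Htra2 and Aifm1, with adjusted p of 0.0840, 0.0978 and 0.0673, where 39.4% of all genes tested had such a p. DESeq2 called 1 gene of this list and limma voom 1. These 3 genes are named for their p-values and were chosen after the values were seen.

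Of the mitochondrial channels and partners, 9 of 10 were tested and 2 were called, both higher. Tmbim6, a membrane protein known as Bax inhibitor, was at 91.6 ± 71.8 CPM (SD, n = 5) in control and 328 ± 113 (SD, n = 5) in mutant oocytes (log2 fold change 1.84, SE 0.47, adjusted p = 0.0106). Without wt5 the log2 fold change of Tmbim6 was 2.48 (adjusted p = 0.00144). Ywhaz, a scaffold that holds phosphorylated Bad away from mitochondria, was at 116 ± 29.4 CPM (SD, n = 4) in the wt/wt group, 377 in C3 and 700 ± 365 (SD, n = 5) in mutants (log2 fold change 2.06, SE 0.46, adjusted p = 0.00535). Against the f/f oocyte alone the log2 fold change of Ywhaz was 0.91 (adjusted p = 0.515) and that of Tmbim6 was 2.33 (adjusted p = 0.168).

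Of the upstream regulators, 14 of 15 were tested, 1 was called higher and 2 lower. Mapk8, a stress kinase that phosphorylates Bim and its relatives, was at 563 ± 117 CPM (SD, n = 5) in control and 202 ± 88.0 (SD, n = 5) in mutant oocytes (log2 fold change -1.48, SE 0.36, adjusted p = 0.00788). The f/f oocyte had 618 CPM of Mapk8, within the wt/wt range of 411 to 714, and the mutants had 119 to 327. Itpr1, the calcium channel through which Bcl2 proteins act on the endoplasmic reticulum, was at 146 ± 27.7 CPM (SD, n = 5) in control and 61.5 ± 18.9 (SD, n = 5) in mutant oocytes (log2 fold change -1.25, SE 0.33, adjusted p = 0.0135). In both genes the mutants all lay below the lowest control, which is the separation given above for Bcl2l11. Neither was called against the f/f oocyte alone, where the log2 fold change was -1.58 (adjusted p = 0.208) for Mapk8 and -1.06 (adjusted p = 0.345) for Itpr1, and the call of Itpr1 was also lost with the replicate block over single libraries.

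Trp63, whose product guards oocytes against DNA damage, was called higher, with a log2 fold change of 1.34 (SE 0.46, adjusted p = 0.0404), and the call held in 14 of 24 alternatives. It was lost without wt1, wt3, wt4, wt5, D2, D3 or D4 (log2 fold changes 1.12 to 1.78, adjusted p up to 0.0927), with library totals alone, with the replicate block and against the f/f oocyte alone, where the log2 fold change of Trp63 was 0.37 (adjusted p = 0.813). Trp63 stood at 7.32 to 13.3 CPM in the wt/wt group, 27.0 in C3 and 17.5 to 54.0 in mutants. Trp53, chosen after its values were seen, was near the floor in wt/wt oocytes and well above it in the others: it had 2, 1, 0 and 1 counts in wt/wt oocytes, 174 in C3, and 51, 52, 128, 162 and 26 in mutants. Its log2 fold change was 1.73 (SE 1.00, adjusted p = 0.207) against all controls and -0.41 (adjusted p = 0.779) against the f/f oocyte alone. Trp53 was called higher without C3 (5.83, adjusted p = 6.51e-05) and, with C3 kept, by limma voom (5.16, adjusted p = 0.000107) and with the replicate block over single libraries (4.74, adjusted p = 0.0457). The size of these fitted values depends on how each method treats counts near 0, because no wt/wt oocyte had over 2 counts.

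The 3 genes whose log2 CPM over the 10 oocytes was most like that of Bcl2l10, of 9197 compared, were Caskin1 (Pearson r 0.95), Bub1b (0.948) and Esrra (0.947). Bub1b, a spindle checkpoint kinase, was at 1228 ± 292 CPM (SD, n = 4) in the wt/wt group, 7653 in C3 and 4206 ± 2494 (SD, n = 5) in mutants. These values are descriptions: strain and the TMM factors both separate the wt/wt oocytes from the other 6.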

How the data were processed

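RNA from single oocytes was reverse transcribed from the poly(A) tail, which reaches up to 3 kb from the 3′ end. Per the labels and the study's methods, the authors filtered the reads, aligned them to mm10 with TopHat2 2.0.6, retained the best alignments that were unique and used HTSeq for counting over RefSeq genes. The deposited values are raw counts, without normalization, for 24064 genes and 14 libraries. All columns were assigned (0 unmapped), 1 of them, a C3 library with the suffix DNA, to a sample title in which the letter and digit of the name are swapped. Libraries sharing an oocyte name were summed, although the descriptions number them as separate oocytes, giving 10 oocytes of 1375187 to 6928548 counts.

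Genes with a count were ranked by total and the top 60% kept (9198 of 15432). The comparison of mutant with control oocytes used edgeR 4.0.16 in R 4.3.3 (TMM, glmQLFit, glmQLFTest, Benjamini-Hochberg over all genes kept), tested on simulated data. Log2 CPM used a prior count of 2, which the main edgeR fit did not use, and 3 counts were taken as the floor. Each edgeR SE is the size of the log2 fold change over the square root of its F statistic. DESeq2 1.42.0, limma 3.58.1, other scalings, filters, controls and each oocyte left out were alternatives. They reuse the same oocytes, so a tally of them is no count of independent tests. Coordinates and coding sequences came from GENCODE M21. All members, called pathway genes and the 3 genes most like Bcl2l10 were named. The members and lists were chosen with earlier results of these data known.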

Additional observations from a re-analysis of the deposited data

Results flagged for a closer look

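Of 12 sets of 5 oocytes examined over the members, 1 held an oocyte far from the others by Dixon's test at 95% (critical value 0.71), where chance would give about 0.6, that is 1 in 20. This was Bcl2l10 in control oocytes. The f/f oocyte C3 was at 33800 CPM against 11900 in the next control, and the gap made up 0.779 of the whole range of the group on the log2 scale. In shares of all counts the gap was 0.466, below the critical value. C3 has the lowest TMM factor (0.6516) and is the only control oocyte of mixed B6;129 strain, and the part of either in this gap was not tested. In 1 further set, Bcl2 in control oocytes, wt5 had 6 counts (2.69 CPM) and the other controls 0. Its gap is 1, the whole range, for any count above 0 in the lone oocyte, so it was left out of the number above and is given as a value.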

How the results depend on the processing

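Bcl2l11 was called lower in 23 of 24 alternatives (without single oocytes, -2.61 to -2.25), the exception being the f/f oocyte alone as control, and Bid, which only the controls carry past the filter on low counts, lost its call with the replicate block (-2.54, adjusted p = 0.323). The number of members called, 2 as reported, was 1 with edgeR's filterByExpr, with 1 library per oocyte and with the replicate block, 0 with the f/f oocyte alone, and 1 to 2 without single oocytes, with 1 without wt1. It was 3 with limma voom. With wt/wt oocytes alone it was again 2, but of other make-up: Bcl2l10 higher and Bcl2l11 lower, with Bid not tested. Bcl2l10 was called higher with limma voom (log2 fold change 1.25) and with wt/wt oocytes alone (1.32), and was 0.132 with GC content and length trends removed and -0.397 with the f/f oocyte alone. Without single oocytes it ranged from 0.529 to 1.32, and it was called without C3, which is the same fit as wt/wt oocytes alone. Bcl2l1 turned to -0.0559 with library totals alone, -0.184 with GC content and length trends removed, and -0.0771 with the f/f oocyte alone. The number of pathway genes called, 8 as reported, was 5 with the replicate block, 0 with the f/f oocyte alone, and 5 (without wt4) to 10 (without C3) when single oocytes were left out, while library totals alone gave 12, of which 3 were higher and 9 lower. The causes of these shifts were not tested. The numbers in the sample descriptions did not pair oocytes (correlations of deviations -0.128 to 0.0937 over 4 shared numbers), so the replicate block is no paired analysis. Depth limits the members at 3 counts or fewer. Levels of Bcl2l10 and of the marker lists in shares of all counts and members' levels with the length capped at 3 kb were added after seeing the data.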
